A study of Mus musculus with 6 samples.

Results

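Acute phase and lipopolysaccharide-binding genes of the involuting mammary gland are described here, in WT and Rac1-/- glands at involution day 2. These 10 genes are Saa1, Saa2, Saa3, Lbp, Cd14, Orm1, Orm2, Hp, Lcn2 and Lrg1, and they were taken by name, with every probe set whose platform annotation gives exactly 1 symbol and that symbol is theirs. This gave 12 of 45101 probe sets and 10 of 18194 genes. Each of the 6 Affymetrix mouse GeneChip arrays held the RNA of 1 mouse, from inguinal gland 4, with 3 WT and 3 Rac1-/- mice. Both groups carried the floxed Rac1 alleles (Rac1fx/fx) and the RosaYFP reporter, and the Rac1-/- mice also carried WAPiCre, a Cre recombinase under the whey acidic protein promoter, whereas the WT controls had no Cre. The groups were age matched, the labels give no age, and pups had been removed from the dams after a period of nursing. Cre under this promoter acts in luminal epithelial cells, so the myoepithelial and stromal cells of a Rac1-/- gland keep Rac1.

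The acute phase response is the rapid rise of a set of secreted proteins after injury or infection, best known from the liver, where interleukin-6 family cytokines act through Stat3 and interleukin-1 acts through NF-kB and C/EBP factors. When milk stops being removed, the luminal cells of the mammary gland switch on many of the same genes themselves. Serum amyloid A proteins, encoded by the Saa genes, associate with lipoproteins and attract leukocytes. Lbp carries bacterial lipopolysaccharide to Cd14, a surface and soluble receptor that hands it to Tlr4 and Ly96, and Cd14 also binds apoptotic cells.

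The values used here are log2 intensities after quantile normalization between arrays, so a difference of 1 is a 2-fold difference. The deposited arrays differed in spread, with an interquartile range of the log2 intensities from 1.23 in the Rac1-/- mouse Nas497 to 2.85 in the WT mouse Nas478. Actin control probe sets at the 3' and 5' ends report on RNA quality, and the log2 of 3' minus that of 5' ran from -0.19 to 0.066 in WT and from -1.21 to -0.33 in Rac1-/- mice, with no overlap. Rac1 itself had 9.31, 9.50 and 8.97 in WT mice, against 9.51, 9.01 and 9.84 in Rac1-/- mice on one probe set, and ran from 8.74 to 9.89 in WT and from 8.14 to 8.77 in Rac1-/- glands on another. The groups overlapped on both, and on a dim probe set with 1 value at the floor, and the sources used here do not say whether any of them lies in the deleted exons, so they check nothing. The study's methods state that the deletion was checked by PCR on DNA of each gland. Mammary identity was plain in all glands, with Csn2 (beta-casein) between 14.63 and 15.96. In a whole gland, fewer cells of a type and less RNA per cell cannot be told apart.

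As a group these genes had lower values in Rac1-/- glands. The mean was lower for 9 of the 10 genes, with -1.80 as the median log2 fold change, whereas over all 18194 genes 46.1% had a lower and 53.9% a higher mean and the median was 0.060. For 7 genes, Saa1, Saa2, Saa3, Lbp, Orm1, Orm2 and Lrg1, no Rac1-/- mouse reached the lowest WT mouse, a separation in this direction that 4.2% of all genes had. Hp lay above in every Rac1-/- mouse, as did 5.41% of all genes, though its direction turned when the arrays were scaled to a common median. With that scaling Saa1 (on the brighter of its probe sets), Saa3 and Lrg1 overlapped and Lcn2 was apart and lower. None of the 10 passed limma's test at an adjusted p under 0.05, where 0% of genes were called in either direction. At an unadjusted p under 0.05 limma gave 7 genes lower and 0 higher, beside 1.82% and 2.23% of all genes. Of the 12 probe sets 8 were lower and 0 higher at this level, beside 4.04% of all probe sets in either direction. The count of lower genes was 4 without the WT mouse Nas483 (1.12% of all genes), 4 without the Rac1-/- mouse Nas497 (2.26%) and 4 with the actin difference in the fit (4.26%). With 3 mice against 3 an exact two-sided permutation test cannot give a p below 0.1.

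**Figure D1:**
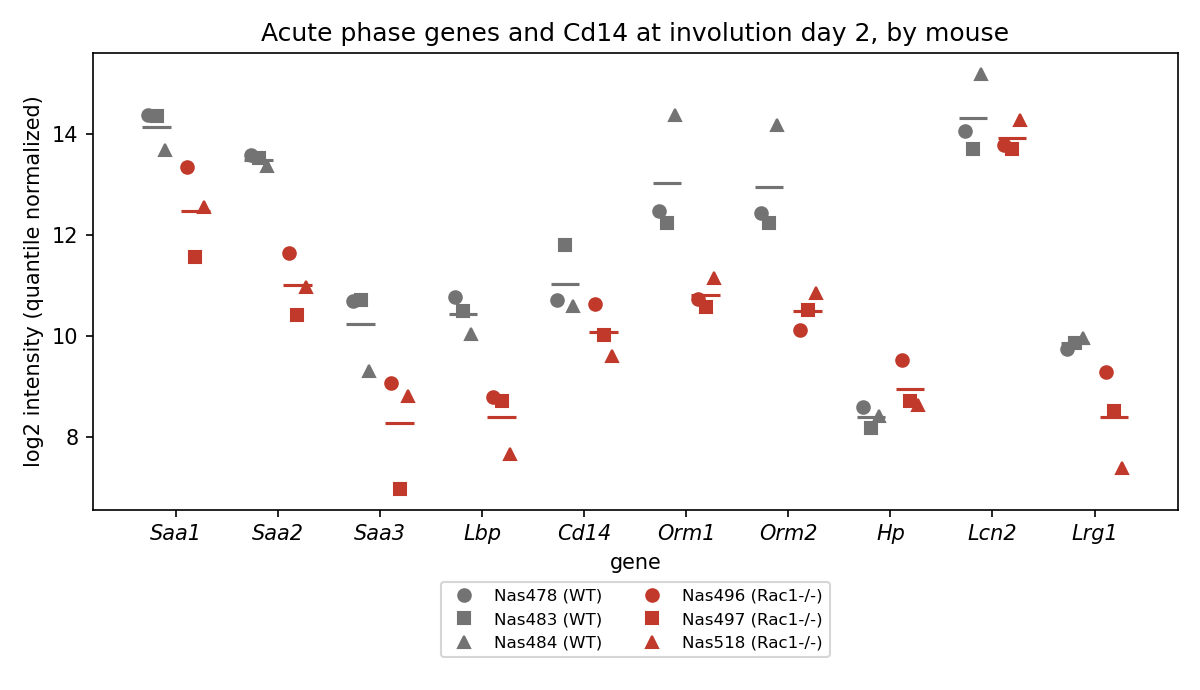
Quantile-normalized log2 intensity (y axis) of the 10 genes (x axis) at involution day 2, with 1 point per mouse, WT in grey and Rac1-/- in red, and a bar at the mean of each group of 3. On the probe set used for each gene the groups are apart for 8 genes, with Rac1-/- lower for 7 and higher for Hp, and they overlap for Cd14 and Lcn2. With a common median Hp turns, Saa1 (on the brighter of its probe sets), Saa3 and Lrg1 overlap and Lcn2 is apart.

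The serum amyloid A genes Saa1 and Saa2 are neighbouring paralogs, and their promoters are alike. Probe sets measure transcripts, which were not compared, so this does not tell what the probe sets of the pair can distinguish. The RefSeq promoter table of GRCm38.p6 held 6 of the 10 genes, namely Saa1, Saa2, Saa3, Orm2, Lcn2 and Lrg1. Start, here and in the motif positions, means the start that this promoter table uses. For Saa1 and Saa3 it lies inside the gene span given below. The Saa1 window thus overlaps its span in part, and the Saa3 window lies wholly inside its span. The 250 bases before the start of Saa1 (chr7:46742981-46743230, minus strand) and Saa2 (chr7:46751583-46751832, plus strand) are shown because of their likeness. Those of Saa3 (chr7:46715677-46715926, minus strand) and Orm2 (chr4:63362199-63362448, plus strand) are shown as other genes that lay lower in every Rac1-/- mouse under quantile normalization, and that of Lcn2 (chr2:32387740-32387989, minus strand) as a gene whose groups overlapped there. Each runs 5' to 3' on the strand of the gene, and capitals mark TTNNGCAA on either strand, a core that C/EBP factors can bind.
Saa1: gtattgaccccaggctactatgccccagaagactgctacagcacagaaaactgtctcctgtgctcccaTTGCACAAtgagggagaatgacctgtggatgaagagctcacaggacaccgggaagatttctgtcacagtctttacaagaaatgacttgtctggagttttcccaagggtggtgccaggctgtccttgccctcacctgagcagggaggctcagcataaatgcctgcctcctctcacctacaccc
Saa2: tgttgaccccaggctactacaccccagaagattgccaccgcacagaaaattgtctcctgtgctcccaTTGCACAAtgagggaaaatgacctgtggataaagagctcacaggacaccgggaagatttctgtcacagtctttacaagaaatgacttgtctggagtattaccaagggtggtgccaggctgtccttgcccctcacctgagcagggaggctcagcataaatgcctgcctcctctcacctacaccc
Saa3: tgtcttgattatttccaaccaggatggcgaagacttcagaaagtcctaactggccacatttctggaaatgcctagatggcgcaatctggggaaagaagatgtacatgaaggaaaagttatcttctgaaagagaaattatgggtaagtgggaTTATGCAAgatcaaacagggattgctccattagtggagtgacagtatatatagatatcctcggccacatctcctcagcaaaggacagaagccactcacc
Orm2: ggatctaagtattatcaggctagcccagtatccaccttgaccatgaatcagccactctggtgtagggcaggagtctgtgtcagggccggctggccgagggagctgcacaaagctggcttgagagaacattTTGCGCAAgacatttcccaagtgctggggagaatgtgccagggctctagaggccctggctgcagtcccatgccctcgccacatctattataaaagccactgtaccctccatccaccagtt
Lcn2: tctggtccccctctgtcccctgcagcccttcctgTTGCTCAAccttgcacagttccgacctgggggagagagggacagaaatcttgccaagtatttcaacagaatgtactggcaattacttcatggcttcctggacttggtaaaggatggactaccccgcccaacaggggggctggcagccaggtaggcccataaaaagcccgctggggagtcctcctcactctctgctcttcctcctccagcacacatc

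In a global alignment Saa1 and Saa2 were identical at 94.8% of positions over these 250 bases, whereas the other pairs of the 6 promoters had 46.2% to 53.2%. The TTNNGCAA core was found in Saa1, Saa2, Saa3, Orm2 and Lcn2 but not in Lrg1, and 9.56% of all 32851 promoters in the table hold it in the same window. Relative to the start it lies from -182 to -175 in Saa1, -183 to -176 in Saa2, -99 to -92 in Saa3, -120 to -113 in Orm2 and -216 to -209 in Lcn2. None of the 6 windows held TTCNNNGAA, the core of a Stat site (7.02% of all promoters), or the NF-kB consensus (3.9%), both strands searched, and a window of this length says nothing of sites further away. The motifs were chosen with the sequences in view, and no factor's binding was measured.

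Saa2 (chr7:46751833-46754313) had the lowest log2 fold change of the 10 genes on the probe sets used, an order that did not hold for the other probe set of Saa1 (-2.83), that put Orm2 first when Nas478, Nas483, Nas497 or Nas518 was left out and with the actin difference in the fit (-2.77 against -1.88), and that put Lbp first without both Nas484 and Nas497 (-2.48 against -2.19). Its log2 intensities were 13.59, 13.52 and 13.38 in the WT mice (Nas478, Nas483 and Nas484, the order used throughout), against 11.65, 10.41 and 10.97 in the Rac1-/- mice (Nas496, Nas497, Nas518, likewise). The WT mice lay within 0.22 of each other and the Rac1-/- mice all lay well below them. As deposited, before normalization, the linear intensities were 17904, 15314 and 9578 in WT mice, compared with 4166, 679 and 1339 in Rac1-/- mice. After quantile normalization Saa2 had a log2 fold change of -2.49 (SE 0.48, 95% confidence interval -3.57 to -1.40, limma adjusted p = 0.745), or 5.60-fold lower in Rac1-/- glands. The suffix of this probe set marks it as able to match several transcripts, so it may not report on Saa2 alone. Another probe set designed on a Saa2 transcript, annotated to Saa1 and described next, gave -1.66.

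Saa1 (chr7:46740497-46743181) has a pair of probe sets, and they gave different sizes. On the probe set with the higher mean the log2 intensities were 14.39, 14.36 and 13.69 in WT glands, against 13.34, 11.56 and 12.55 in Rac1-/- glands. This probe set was designed on a transcript that RefSeq assigns to Saa2 although the annotation names Saa1, and its suffix marks it as able to match several transcripts, so it may report on both genes. Its log2 fold change was -1.66 (SE 0.56, 95% confidence interval -2.94 to -0.38), and -3.06 with arrays scaled to a common median. On the probe set designed on the Saa1 transcript the values were 13.56, 13.19 and 12.83 in WT mice, against 11.06, 10.07 and 9.98 in Rac1-/- mice. The groups lay further apart here, with a log2 fold change of -2.83 (SE 0.51) in the fit over probe sets. The lowest WT mouse and the highest Rac1-/- mouse were 1.77 apart on this probe set and 0.34 apart on the brighter one. As deposited, the linear intensities of the probe set designed on the Saa1 transcript were 17456, 12386 and 6433 in WT mice. They were 2730, 516 and 780 in Rac1-/- mice, with every Rac1-/- mouse lower.

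Saa3 (chr7:46711998-46719615), a serum amyloid A made by macrophages, adipocytes and epithelia more than by liver, had 10.69, 10.71 and 9.31 in WT glands, compared with 9.08, 6.98 and 8.82 in Rac1-/- glands. The gap between the groups was only 0.23, from Nas484 to Nas496, and Nas497 lay far below the rest. For Saa3 the log2 fold change was -1.94 (SE 0.69), with a 95% confidence interval from -3.51 to -0.37. On the probe sets used, Saa1 and Saa3 were the members whose values depended most on the actin difference. With it in the fit their log2 fold changes were -0.61 (SE 0.66) and -0.26 (SE 0.66), against -1.88 (SE 0.61) for Saa2. The Saa1 value is from the brighter probe set, which may report on both Saa1 and Saa2. The probe set designed on the Saa1 transcript was not fitted with the actin difference, so Saa1 and Saa2 cannot be set apart in this. The actin difference also separates the genotypes, so it and the loss of Rac1 cannot be told apart here. Saa4, a serum amyloid A that is made constitutively, was dim, at 4.66 ± 1.43 (SD, n = 3) in WT against 5.52 ± 0.44 (SD, n = 3) in Rac1-/- mice, with overlap.

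The alpha-1-acid glycoproteins Orm1 (chr4:63344556-63348163) and Orm2 (chr4:63362449-63365877), plasma carriers of lipophilic ligands, ran together over the mice. Orm1 had 12.48, 12.25 and 14.39 in WT mice, against 10.74, 10.58 and 11.15 in Rac1-/- mice. Orm2 had 12.44, 12.24 and 14.18 in WT glands, against 10.13, 10.52 and 10.87 in Rac1-/- glands. In both the WT mouse Nas484 stood well above the other WT mice after quantile normalization. It was also the highest without normalization, at 13.81 for Orm1 and 13.74 for Orm2. With a common median it lay just below Nas478, at 13.61 against 13.65 for Orm1 and 13.54 against 13.64 for Orm2. After quantile normalization the gap from the lowest WT to the highest Rac1-/- mouse was 1.09 for Orm1 and 1.37 for Orm2. The log2 fold change was -2.21 (SE 0.63, 95% confidence interval -3.65 to -0.78) for Orm1 and -2.45 (SE 0.60, -3.83 to -1.07) for Orm2, or 4.64-fold and 5.45-fold lower. Without Nas484 these were -1.54 and -1.84, and without both Nas484 and Nas497 they were -1.42 and -1.85. The centred values of the pair differed by 0.21 log2 units in root mean square over the 6 mice, the closest of the 45 pairs of members. The genes are close relatives on chromosome 4, and whether their probe sets cross-hybridize was not tested. Orm3, the other member of the family, was dim and overlapped, with 4.72 ± 1.46 (SD, n = 3) in WT against 4.18 ± 0.48 (SD, n = 3) in Rac1-/- mice.

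Of the lipopolysaccharide pair, Lbp was apart between the groups and Cd14 was not. Lbp (chr2:158306493-158332852) had 10.77, 10.50 and 10.05 in WT mice, compared with 8.81, 8.72 and 7.67 in Rac1-/- mice. The highest Rac1-/- mouse was 1.24 below the lowest WT mouse. For Lbp the log2 fold change was -2.04 (SE 0.50, 95% confidence interval -3.18 to -0.90, limma adjusted p = 0.946), or 4.12-fold lower. A dimmer probe set of Lbp had 9.74, 8.65 and 6.61 in WT glands, against 7.56, 6.76 and 5.76 in Rac1-/- glands, where the groups overlapped, with -1.64 (SE 0.85).

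Cd14 had 10.72, 11.81 and 10.59 in WT mice, against 10.64, 10.03 and 9.61 in Rac1-/- mice. Nas496 lay between the WT mice Nas484 and Nas478, and the high WT mouse was Nas483. The linear intensities as deposited were 2408, 4756 and 1320 in WT glands, compared with 1921, 507 and 621 in Rac1-/- glands, and they overlap in the same way. The 95% confidence interval of the log2 fold change ran from -2.15 to 0.26, which holds 0 (exact permutation p = 0.2, n = 3 per group). The log2 fold change itself was -0.95 (SE 0.53), and it was -0.57 without the WT mouse Nas483 and -2.02 with arrays scaled to a common median. The groups of Cd14 overlapped under quantile normalization, a common median and no normalization, and were apart when both Nas484 and Nas497 were left out.

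Lrg1 (chr17:56119678-56121946), a leucine-rich glycoprotein that modulates TGF-beta signaling in endothelium, was even in WT glands at 9.75, 9.87 and 9.97. In Rac1-/- glands it was 9.29, 8.51 and 7.40. The WT mice lay within 0.22 of each other while the Rac1-/- mice spread over 1.88, all of them lower. The log2 fold change was -1.46 (SE 0.55, 95% confidence interval -2.73 to -0.20), and it was -0.98 without Nas518 and -2.32 with arrays scaled to a common median. With that scaling the WT mice were less even, at 10.84, 10.71 and 9.55. Nas496, at 9.63, then lay above Nas484, so the groups overlapped.

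Lcn2 (chr2:32384637-32387739), a siderophore-binding lipocalin that withholds iron from bacteria, overlapped between the genotypes. It had 14.06, 13.71 and 15.19 in WT mice, against 13.79, 13.71 and 14.28 in Rac1-/- mice. Only Nas484 lay above all Rac1-/- mice. The log2 fold change was -0.40 (SE 0.52), with a 95% confidence interval from -1.59 to 0.80, and it was 0.045 without Nas484. Here the normalization decides whether the groups overlap. As deposited the linear intensities were 25891, 18822 and 22870 in WT glands, against 15300, 7292 and 11661 in Rac1-/- glands, with every Rac1-/- mouse lower, and scaling to a common median gave a log2 fold change of -1.50, also with no overlap.

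Hp (chr8:109575128-109579172), the haemoglobin-binding haptoglobin, was the 1 member with a higher mean in Rac1-/- glands after quantile normalization. It had 8.60, 8.19 and 8.42 in WT mice, compared with 9.54, 8.71 and 8.64 in Rac1-/- mice. The gap between the groups was only 0.039, from Nas478 to Nas518. For Hp the log2 fold change was 0.56 (SE 0.46), with a 95% confidence interval from -0.49 to 1.61. With arrays scaled to a common median it was -0.31, and as deposited the groups overlapped, at 503, 352 and 296 in WT glands, against 853, 250 and 346 in Rac1-/- glands.

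**Figure D2:**
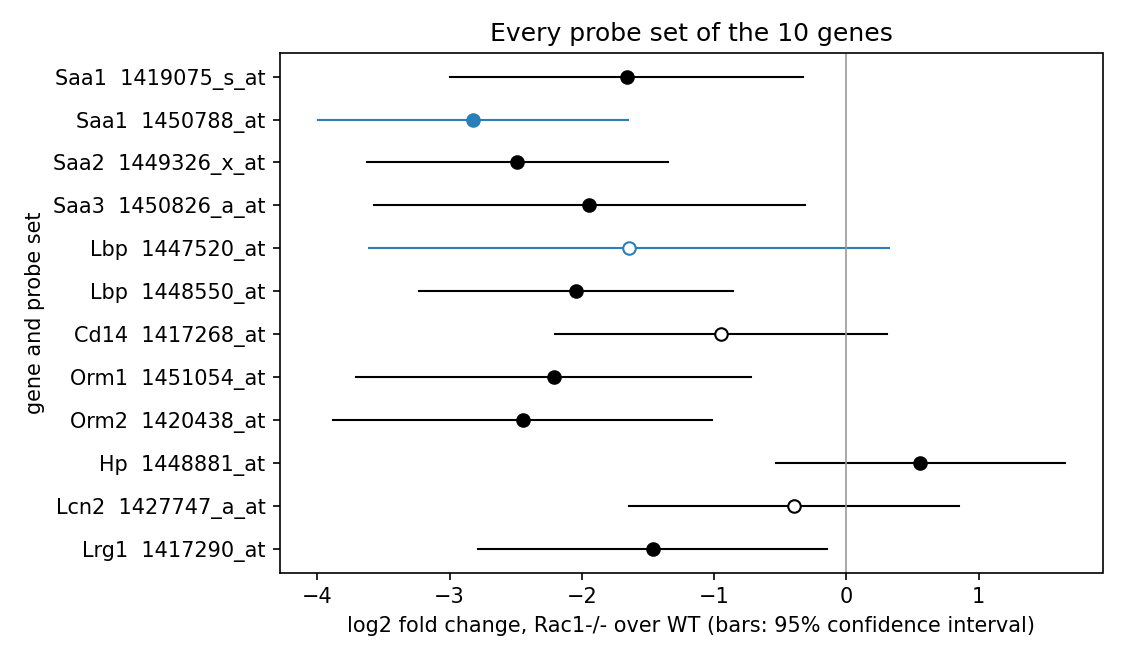
Log2 fold change of Rac1-/- over WT glands (x axis) for the 12 probe sets (y axis), with 95% confidence intervals from limma over all 45101 probe sets and n = 3 mice per group. Black marks the probe set used for its gene, blue the others, and open points mark overlapping groups, with estimates from -2.83 for the second probe set of Saa1 to 0.56 for Hp, which turns to -0.31 with arrays scaled to a common median.

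Scaling also set the size of all the estimates. The median of all genes moved from 0.060 to -0.12 with a common median, and without normalization between arrays it was 0.35. Relative to the median of all genes, Saa2 had -2.55 with quantile normalization, -3.50 with a common median and -3.50 without normalization. For Lbp these were -2.10, -2.86 and -2.86, and for Cd14 they were -1.01, -1.90 and -1.90. For Hp they were 0.50, -0.19 and -0.19, so its sign turned. With a common median 5 genes lay lower in every Rac1-/- mouse, which were Saa2, Lbp, Orm1, Orm2 and Lcn2. The share of all genes with this separation was not computed for that scaling, so the count has no background beside it. On the probe sets used, Saa2, Lbp, Orm1 and Orm2 were apart under every scaling and without Nas484 and Nas497. They were also apart with the mean of all probe sets.

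**Figure D3:**
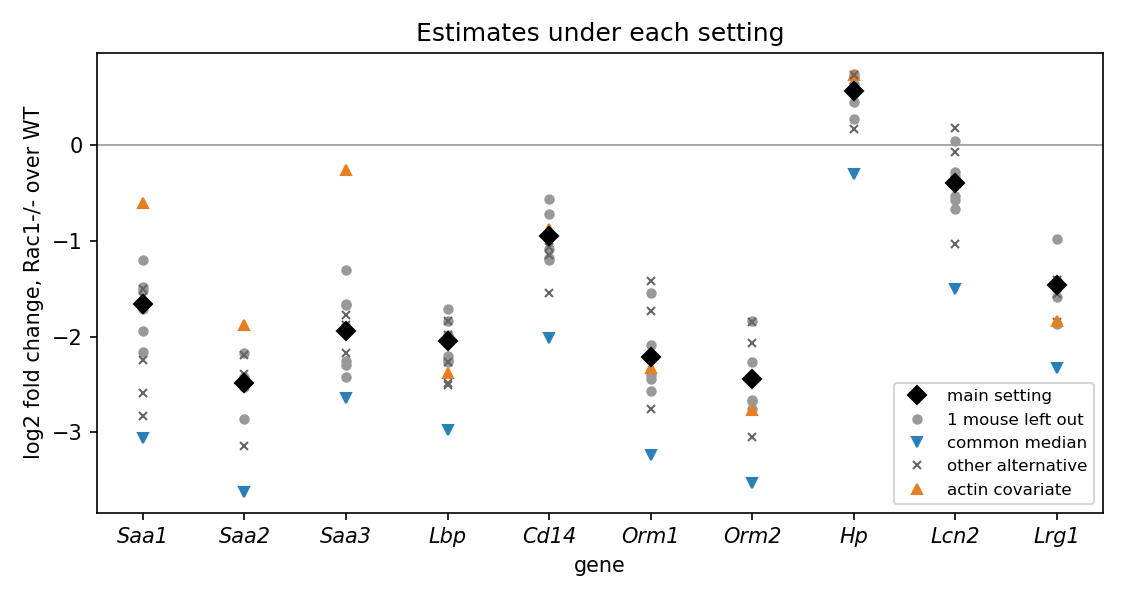
Log2 fold change of Rac1-/- over WT glands (y axis) of each gene (x axis) under the setting used throughout (black diamonds) and each alternative, where 1 mouse left out is a grey circle, a common median a blue triangle the actin covariate an orange triangle and any other alternative a cross. Estimates of 8 genes stay below 0, while Hp turns to -0.31 with a common median and Lcn2 turns to 0.045 and 0.17 when Nas484 is among the mice left out.

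Over the mice, the members did not share a single order after quantile normalization. The highest mouse was Nas484 for 4 genes, Nas478 for 3, Nas483 for 2 and Nas496 for 1, for Hp. The lowest was Nas497 for 4 genes, Nas518 for 3, Nas483 for 2 and Nas496 for 1, with Nas483 and Nas497 equal for Lcn2. With a common median the order was more alike. Nas478 was then highest for all members but Cd14 and Hp, and Nas497 was lowest for all but Lbp and Lrg1. After quantile normalization the mean of the centred values was 0.71, 0.67 and 0.87 in WT, against -0.34, -1.07 and -0.85 without Rac1. Nas496 was thus the Rac1-/- mouse nearest to WT. Highest and lowest mouse differed 2.54-fold for Hp and 2.80-fold for Lcn2, and up to 16.6-fold for Orm2. On the probe sets used, Saa1, Saa2 and Saa3 were lowest in Nas497, which also had the lowest actin difference, while Lbp, Cd14 and Lrg1 were lowest in Nas518. With a common median Cd14 was instead lowest in Nas497 (8.49, against 9.07 in Nas518). The probe set designed on the Saa1 transcript was lowest in Nas518 (9.98, against 10.07 in Nas497) after quantile normalization. As deposited it was lowest in Nas497 (516, against 780 in Nas518). Among 9087 other genes with a mean above the median, the 3 whose centred values lay nearest to the mean of the members were Uap1l1, Zcchc2 and Ssr4, with root mean square differences of 0.19, 0.19 and 0.22 log2 units over 6 mice. Ssr4, a subunit of the translocon-associated complex of the endoplasmic reticulum, had 9.64, 9.62 and 9.68 in WT mice, against 9.15, 8.16 and 8.29 in Rac1-/- mice.

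**Figure D4:**
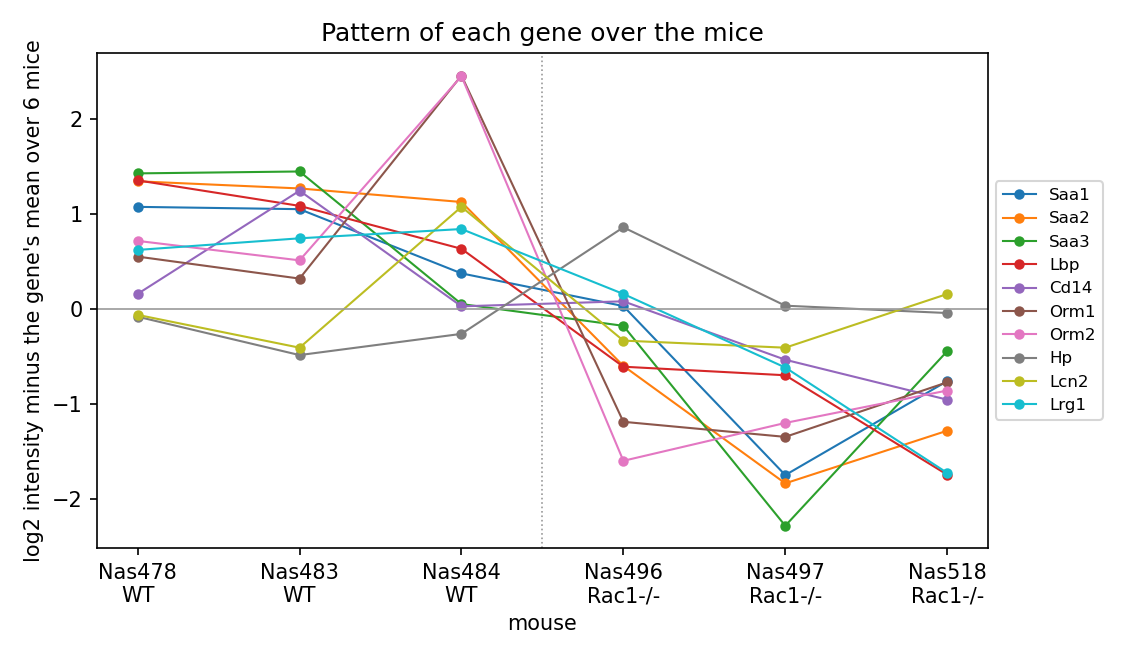
Log2 intensity of each gene minus its own mean over the 6 mice (y axis) in each mouse (x axis), WT left and Rac1-/- right of the dotted line, with lines that only join the points of a gene. Under quantile normalization Orm1 and Orm2 peak together in Nas484, and the Saa genes are lowest in Nas497 on the probe sets used. Hp alone is highest in a Rac1-/- mouse, Nas496. With a common median Orm1 and Orm2 are highest in Nas478.

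The cytokines and factors that induce acute phase genes had a list median above 0 under quantile normalization and below 0 (-0.42) with a common median. Of 22 measured genes of this list, 14 had a higher and 8 a lower mean in Rac1-/- glands (median log2 fold change 0.25), and none passed limma's adjusted test. At an unadjusted p under 0.05, 4 were higher and 0 lower. Lif, an interleukin-6 family cytokine of early involution, had 6.33, 6.17 and 6.14 in WT glands, compared with 7.71, 7.81 and 7.10 in Rac1-/- glands. Il1r1, the interleukin-1 receptor, was dim, with 5.82, 4.26 and 5.78 in WT mice, against 6.34, 6.79 and 6.70 in Rac1-/- mice. For both, every Rac1-/- mouse lay above every WT mouse under all 3 scalings, with log2 fold changes of 1.32 (SE 0.43) and 1.32 (SE 0.55). The other 2, Il6 and Il1a, named after their values were seen, were dim and overlapped, although Il1a was higher in every Rac1-/- mouse with a common median and without normalization, and Il6 was at the floor in Nas483. Stat3, which carries interleukin-6 family signals to the nucleus, had 9.78 ± 0.17 (SD, n = 3) in WT against 9.93 ± 0.26 (SD, n = 3), but its difference was -0.91 with a common median and -0.44 without normalization, with overlap throughout. Socs3, its feedback target, had 8.45, 9.09 and 6.86 in WT glands, against 9.72, 6.12 and 8.17 in Rac1-/- glands, a spread far wider than the difference of -0.13 (SE 0.94). The log2 fold change was -0.75 (SE 0.53) for Cebpb, -0.27 (SE 0.64) for Cebpd and -0.21 (SE 0.60) for the oncostatin M receptor gene Osmr, all with overlap.

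Other acute phase genes had a list median above 0, unlike the 10, under all 3 scalings, though it was -0.16 with the actin difference in the fit. Of 20 measured, 13 had a higher and 7 a lower mean, median log2 fold change 0.35, and none passed the test or had an unadjusted p under 0.05. Only 9 of the 20 had a mean above the median of all genes, and the median of these was 0.32. Of the brightest genes of the list, Mt1 and Mt2 overlapped under quantile normalization. Both were lower in every Rac1-/- mouse with a common median (-1.96 and -1.34) and without normalization (-1.49 and -0.87). Cp, also bright, overlapped throughout, at 0.37 under quantile normalization and -0.83 with a common median. Serpina3n, a protease inhibitor and acute phase gene, had 6.31, 6.75 and 7.00 in WT mice, compared with 8.10, 7.72 and 7.28 in Rac1-/- mice, higher in every Rac1-/- mouse but overlapping with a common median, with a log2 fold change of 1.01 (SE 0.46). Fgl1, a fibrinogen-like hepatokine, had 1.11 (SE 0.57) with overlap.

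Partners downstream of Lbp and Cd14 showed no common direction either. Of 15 genes of the lipopolysaccharide receptor complex and its adaptors, 7 had a higher and 8 a lower mean, with a median of -0.16 that was 0.17 without normalization, and 0 had an unadjusted p under 0.05. Tlr4, the signaling receptor, had 8.50, 9.09 and 8.54 in WT glands, against 8.69, 6.52 and 8.84 in Rac1-/- glands, so only Nas497 was low. Its partner Ly96 had 7.65, 7.52 and 11.60 in WT mice, against 7.16, 7.70 and 7.44 in Rac1-/- mice, with Nas484 far from the rest and a difference of -1.49 (SE 1.01), and it was lower in every Rac1-/- mouse with a common median (-2.07) and without normalization (-1.60). Tlr1, a partner of Tlr2, was higher in every Rac1-/- mouse but overlapped with a common median, with 0.69 (SE 0.44).

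Among 14 receptors and partners of the acute phase proteins, 5 had a higher and 9 a lower mean, with a median of -0.21, and an unadjusted p under 0.05 was reached by 1 higher and 2 lower genes. Fpr2, a formyl peptide receptor that binds serum amyloid A, was dim, with 5.58, 4.80 and 5.56 in WT glands, compared with 6.84, 7.21 and 6.78 in Rac1-/- glands, the reverse of the Saa genes under all 3 scalings. Its log2 fold change was 1.63 (SE 0.45, limma adjusted p = 0.946). Scarb1, a lipoprotein receptor that also binds serum amyloid A, lay lower in every Rac1-/- mouse, and Cd36 was the other lower gene. The Lcn2 receptors Slc22a17 and Lrp2, the haptoglobin receptor Cd163 and the Lcn2 partner Mmp9 overlapped, with log2 fold changes of 0.16 (SE 0.55), 0.67 (SE 0.56), -0.34 (SE 0.74) and -0.23 (SE 0.48).

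Of 15 antimicrobial and iron-binding genes, 6 had a higher and 9 a lower mean, with a median of -0.086 that was 0.17 without normalization, and an unadjusted p under 0.05 was reached by 1 higher and 1 lower gene. Slpi, a secreted protease inhibitor of epithelia, had 11.86, 11.35 and 10.56 in WT mice, against 10.53, 9.74 and 9.46 in Rac1-/- mice, lower in every Rac1-/- mouse here but overlapping under the other scalings, with -1.35 (SE 0.53). Ltf, the iron-binding lactoferrin, had 13.22 ± 0.44 (SD, n = 3) in WT against 13.26 ± 0.26 (SD, n = 3), but its difference was -1.10 with a common median and -0.63 without normalization, with overlap throughout. Mpo, a dim neutrophil granule gene, was the higher one, with 1.65 (SE 0.54), and S100a8 and S100a9 overlapped.

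**Figure D5:**
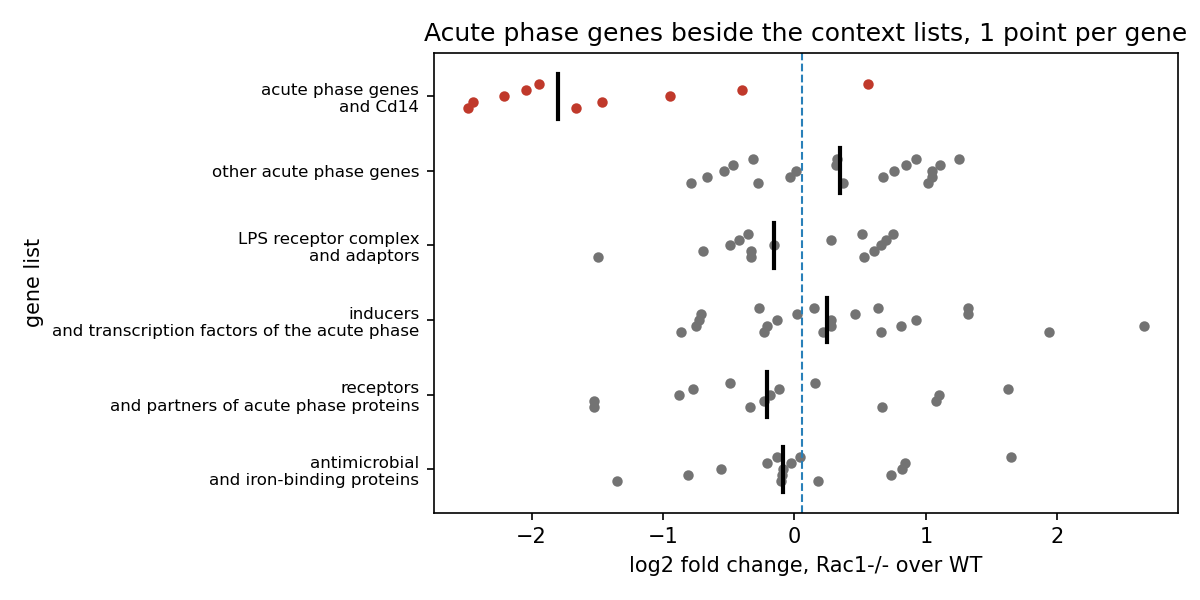
Log2 fold change of Rac1-/- over WT glands (x axis), 1 point per gene, for the 10 genes including Cd14 (red) and the context lists (grey) on the y axis, with a black bar at each median and a dashed line at the median of all genes, 0.060. The red median is -1.80 and the grey medians run from -0.21 to 0.35, with signs that depend on the scaling for several lists, and the point farthest right is Il6, which has a value at the floor.

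Cell type markers stood beside these results as follows. Of 11 mammary epithelial genes, 8 had a lower mean, and Wap, Lalba, Elf5 and Csn2, genes of secretory cells, were lower in every Rac1-/- mouse, with Wap at 15.06, 14.82 and 15.27 in WT glands, against 12.70, 12.30 and 11.84 in Rac1-/- glands. The casein genes Csn1s1 and Csn3 also had lower means, at -1.31 (SE 0.70) and -0.31 (SE 0.46), but overlapped. The summed linear intensity of the 11 ran from 175870 to 200390 in WT and from 74497 to 113561 in Rac1-/- glands, so it was lower with the acute phase genes. The bright milk protein genes weigh most in this sum, so it is no measure of epithelium as such. In the same list Krt18, a luminal keratin, was higher in every Rac1-/- mouse, with 0.90 (SE 0.43), but at -0.23 with a common median, and Epcam, an epithelial surface gene, overlapped. The keratins Krt8 and Krt14 also had higher means, at 0.87 (SE 0.57) and 1.25 (SE 0.72), with overlap. Of 12 macrophage genes, 11 had a higher mean, with a median log2 fold change of 0.64 that was 0.0060 with a common median and a summed intensity from 1886 to 4018 in WT and from 2759 to 7715 in Rac1-/- glands. Of 12 neutrophil genes, 7 had a higher and 5 a lower mean, and the sums overlapped, from 7510 to 12370 and from 9718 to 12888. Ltf, between 12.71 and 13.56, weighs most in these sums, so they are no measure of neutrophils. Clec4d, a dim gene, was higher in every Rac1-/- mouse under all 3 scalings, with 2.20 (SE 0.57), as was Fpr2. Il1r2 was lower in every Rac1-/- mouse under quantile normalization, with -0.61 (SE 0.45), but overlapped under the other scalings. Of 8 adipocyte genes, 5 had a higher mean, with a median of 0.060 that was -0.58 with a common median, and the sums ran from 8336 to 15816 and from 8579 to 16535. Of 9 hepatocyte genes, 5 had a higher mean, from 266 to 425 in WT and from 352 to 648 in Rac1-/- glands, and Alb was dim in all mice, between 5.91 and 6.72. The median log2 fold change was -0.43 for 3 erythroid genes, but 0.33 without normalization and 0.35 without Nas518, and -0.098 for 6 endothelial genes, but 0.15 without normalization, 0.29 without Nas484 and -0.66 with the actin difference in the fit. The part of secretory state, of cell makeup or of RNA quality in the lower acute phase values was not tested.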

How the data were processed

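The authors amplified RNA of 3 WT and 3 Rac1-/- glands with the Affymetrix Sensation kit, made for scarce or degraded RNA, and checked the arrays in Expression Console. The authors deposited 1 linear intensity per probe set. How probes were summarized and normalized is not given in the sources used here. On each array the trimmed mean (2% off each end) was 100, so each array had been scaled alone. No depth exists for arrays, and their number, 3 per group, limits the precision.

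Quantile normalization of the deposited intensities used limma 3.58.1 in R 4.3.3, with a floor of 1 before log2. Of 45101 probe sets, 34958 name 1 symbol, 932 several and 9211 none. The brightest probe set on average stood for each of 18194 genes. The comparison of genotypes used lmFit and eBayes with Benjamini-Hochberg adjustment over all genes, and all probe sets were fitted likewise. The 10 genes, the lists and the tests were chosen with earlier results of these data known. Context genes named are those with the 2 smallest p of each list and the receptors, partners and regulators of members, and a few more are named as seen in the values. No detection calls were used. The fit was tested on simulated data. Promoters are from RefSeq (GRCm38.p6).

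Alternatives left out each mouse or both Nas484 and Nas497, scaled arrays to a common median or not at all, added 16 before log2, averaged or filtered probe sets, dropped dim genes, weighted arrays or put the actin difference into the fit.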

Additional observations from a re-analysis of the deposited data

How the results depend on the processing

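No member was called at the adjusted threshold under any of the alternatives tried (0 higher and 0 lower in limma), also with every probe set tested on its own. The sign of the log2 fold change was kept under all alternatives run for Saa1, Saa2, Saa3, Lbp, Cd14, Orm1, Orm2 and Lrg1. Hp turned to -0.31 with arrays scaled to a common median. Lcn2 ran from -0.67 to 0.045 when single mice were left out, positive without Nas484, and it was 0.17 without Nas484 and Nas497. The median of the 10 genes ran from -2.18 without Nas496 to -1.44 without Nas497, and it was -2.81 with a common median, -2.34 without normalization between arrays and -1.36 with the actin covariate. Alternatives for the counts that follow were chosen after seeing the data. Genes higher in every Rac1-/- mouse numbered 0 with a common median and 0 without normalization, and the shares of all genes were not computed for these scalings. Genes lower at an unadjusted p under 0.05 numbered 4 with the actin covariate and from 4 to 7 when single mice were left out.

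Medians of the context lists were less stable. That of other acute phase genes was -0.16 with the actin covariate and from -0.053 to 0.42 when single mice were left out. That of the lipopolysaccharide receptor complex was -0.30 with a common median, 0.17 without normalization, -0.33 with the mean of all probe sets, -0.33 over genes above the median mean, 0.45 with the actin covariate and from -0.067 to 0.098 when single mice were left out. That of the inducers was -0.42 with a common median, -0.056 over genes above the median mean and 0.71 with the actin covariate. That of the receptors and partners was -0.64 with a common median, -0.41 over genes above the median mean and from -0.47 to 0.030 when single mice were left out. That of the antimicrobial genes was -0.30 with a common median, 0.17 without normalization, 0.46 with the actin covariate and from -0.20 to 0.12 when single mice were left out. The cause of these moves was not tested.

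Without probe sets that can match several transcripts, Saa2, Saa3 and Lcn2 have no value. No paired analysis was possible because the labels give mouse names and no replicate numbers shared between the groups.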
